A study of Mus musculus with 4 samples.

Results

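Ms4a4b, Ms4a4c, Ms4a6b, Ms4a6c and Ms4a6d are 5 of the 50600 genes counted in RNA-seq libraries of mouse regulatory T cells, and were taken by gene symbol. They encode small tetraspan proteins of the membrane-spanning 4A (Ms4a) family. All cells came from strain C57BL/6NJ and formed 1 group of 4 biological replicates, with 1 library each. Regulatory T cells are CD4 T cells that restrain immune responses and depend on the transcription factor Foxp3. A differentiation protocol for CD4 T cells is linked in the labels, and library names in the headers of the files read activated and 72 h. No second condition was present, and the same treatment was shared by all libraries. The labels gave 1 donor identifier for all 4 libraries, no sex and no age, and did not say that the cultures came from separate animals, so the p-values measure only the spread between these libraries. They called the assay total RNA-seq but linked a protocol for poly(A)+ libraries.

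Ms4a proteins cross the membrane several times with both ends inside the cell, and many sit beside receptors and tune their signals. The best known members are Ms4a1, the B cell protein CD20, and Ms4a2, the beta chain of the mast cell receptor for immunoglobulin E. Ms4a4b is a T cell member that has been described as a partner of the costimulatory receptor GITR and as a brake on T cell proliferation. Ms4a4c belongs to the genes that interferon induces in mouse leukocytes, and Ms4a6c and Ms4a6d are best known from monocytes and macrophages. Ms4a6b is a close relative of these that T cells also express.

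Total counts on genes ranged from 51460018 to 121477975 per library. A floor of 3 counts, the most that an observed 0 is taken to allow, was worth 0.0247 to 0.0583 CPM (counts scaled to the library total). Intervals on counts below are exact Poisson 95% intervals and cover counting error only. The 6 regulatory T cell markers each reached 1 TPM (a level scaled for gene length and for the library) in every library. So did 10640 of 21764 protein-coding genes. Foxp3 was at 448 ± 27.8 TPM (SD, n = 4). The 6 markers summed to 4409 to 4911 TPM, from Il2ra at a mean of 2168 TPM down to Ikzf2 at 16.4 TPM. The 6 general T cell markers summed to 3516 to 3760.2 TPM. The libraries differed in sex-linked transcripts. Xist was at 173, 199, 0.592 and 0.758 TPM in replicates 1 to 4, and the Y-linked gene Eif2s3y at 0.0874, 0.133, 46.7 and 62.7 TPM. Replicates 1 and 2 thus had the pattern of female cells and replicates 3 and 4 that of male cells, which goes against the single donor identifier of the labels. This difference lies within every SD and p-value given here.

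The 5 genes lie within 200.1 kb of mouse chromosome 19 (mm10). In order along the chromosome they are Ms4a4c (ENSMUSG00000024675.19, 11404770 to 11427246), Ms4a4b (ENSMUSG00000056290.15, 11443553 to 11463549), Ms4a6c (ENSMUSG00000079419.4, 11469366 to 11482192) and Ms4a6b (ENSMUSG00000024677.13, 11516512 to 11531256), all on the plus strand, and then Ms4a6d (ENSMUSG00000024679.10, 11586604 to 11604849) on the minus strand. Their longest annotated coding sequences hold 681 bases in Ms4a4b and Ms4a4c, 735 in Ms4a6b, 654 in Ms4a6c and 744 in Ms4a6d. The first 90 coding bases are shown as an example of where the genes agree and differ. This stretch does not stand for the whole coding sequences, which are compared below. Capitals mark bases that differ between the 2 genes of a pair, and the first coding base lies at 11449919 in Ms4a4b, 11414817 in Ms4a4c, 11520339 in Ms4a6b and 11471105 in Ms4a6c.
Ms4a4b: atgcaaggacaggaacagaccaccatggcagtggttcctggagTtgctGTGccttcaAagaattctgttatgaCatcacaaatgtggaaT
Ms4a4c: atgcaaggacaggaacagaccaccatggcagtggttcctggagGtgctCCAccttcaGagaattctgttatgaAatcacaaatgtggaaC
Ms4a6b: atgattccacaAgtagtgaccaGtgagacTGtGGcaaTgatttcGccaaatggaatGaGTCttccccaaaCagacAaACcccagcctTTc
Ms4a6c: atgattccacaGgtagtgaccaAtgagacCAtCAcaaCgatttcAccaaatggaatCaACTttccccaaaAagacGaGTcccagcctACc
In this stretch Ms4a4b and Ms4a4c differ at 7 bases, and Ms4a6b and Ms4a6c at 18. Ms4a6d, set against Ms4a6b in the same way with the capitals in its own sequence (first coding base 11603292), differs at 8.
Ms4a6d: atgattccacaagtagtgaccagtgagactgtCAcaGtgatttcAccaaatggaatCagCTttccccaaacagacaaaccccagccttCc

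In alignments of the coding sequences, Ms4a4b and Ms4a4c were identical at 91.8% of aligned bases, the closest pair among the 5 genes. With gaps left out, Ms4a6b was identical to Ms4a6c at 85.3% and to Ms4a6d at 81.3%, while an Ms4a4 and an Ms4a6 gene shared 57.9% to 60.2%. With gaps counted as differences the order of the Ms4a6 pairs turned round, to 73.9% for Ms4a6b with Ms4a6c and 79.9% for Ms4a6b with Ms4a6d. Annotated transcripts of Ms4a4c had 8.19% of their distinct stretches of 50 bases in common with another gene, and those of Ms4a6c 10.5%. The share was 2.40% for Ms4a4b, 3.57% for Ms4a6b and 2.54% for Ms4a6d. A fragment that lies wholly in such a stretch cannot be assigned to 1 gene, and how many fragments this touched was not tested.

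**Figure D1:**
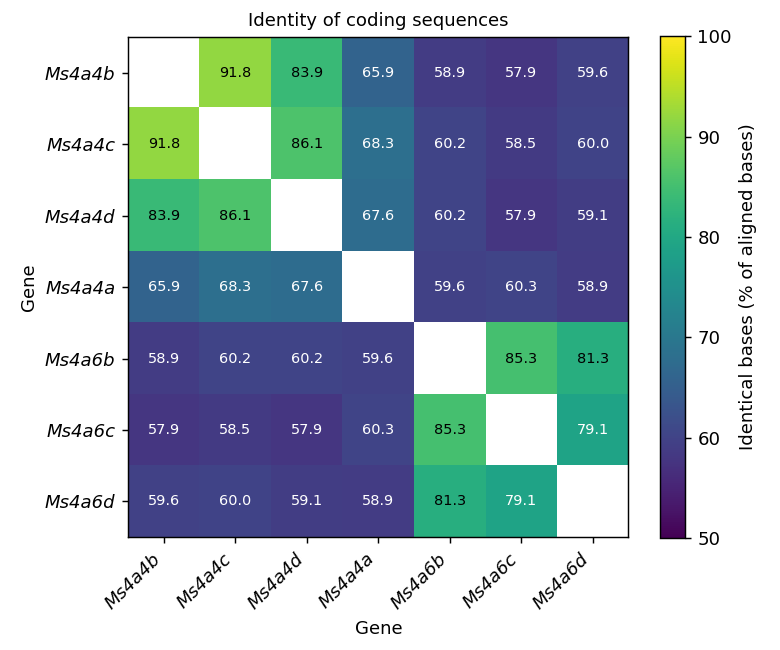
Identity between coding sequences of the 5 genes and of their relatives Ms4a4a and Ms4a4d, as the percentage of aligned bases that are the same, gaps left out (colour and number). The 2 named groups stand out as blocks, with Ms4a4b and Ms4a4c at 91.8% and Ms4a6b and Ms4a6c at 85.3%. Ms4a4a stands apart, at 65.9% to 68.3% with the other Ms4a4 genes.

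Ms4a6b was the highest of the 5 genes. It had 1922, 1497, 1409 and 1058 counts in replicates 1 to 4, which gave 12.0, 18.5, 14.3 and 15.6 TPM. Replicate 1, the deepest library, was the lowest and replicate 2 the highest, a ratio of 1.54. The mean of 15.1 ± 2.71 TPM (SD, n = 4) lay at percentile 65.5 of 21764 protein-coding genes, but at percentile 29.5 of the 10640 that reached 1 TPM in every library. These had a median of 32.5 TPM.

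Ms4a4b, the T cell member linked to GITR, came next with 1397, 674, 937 and 470 counts. In TPM these were 7.41, 7.07, 8.06 and 5.91, with replicate 3 highest and replicate 4 lowest. The mean was 7.11 ± 0.902 TPM (SD, n = 4), at percentile 16.5 of protein-coding genes at 1 TPM in every library. Tnfrsf18, the gene of GITR itself, was at 959, 679.8, 883 and 773 TPM in the same libraries. Ms4a4b and Ms4a6b together made up 86.9% to 93.0% of the summed level of the 5 genes, which was 22.3 to 28.6 TPM.

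Ms4a6c had 150, 88, 79 and 37 counts, and a level of 2.05, 2.38, 1.75 and 1.20 TPM in replicates 1 to 4. Replicate 4 was the lowest: its 95% counting interval of 0.842 to 1.65 TPM lay below those of replicate 1 (1.73 to 2.40 TPM) and replicate 2 (1.91 to 2.93 TPM) and overlapped that of replicate 3 (1.38 to 2.18 TPM). The mean of 1.84 ± 0.501 TPM (SD, n = 4) was at percentile 2.45 of protein-coding genes at 1 TPM in every library. On the opposite strand, exons of the noncoding gene BE692007 cover 1088 bases of Ms4a6c, 53.1% of its merged exon length. The counting separated strands, and BE692007 was at 1.47, 2.10, 1.59 and 1.57 TPM. Its part in the Ms4a6c counts was not tested.

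Ms4a4c, the interferon-induced member, had 40, 8, 21 and 4 counts. These gave 0.639, 0.253, 0.544 and 0.151 TPM, so that replicates 1 and 3 were high and replicates 2 and 4 low, a ratio of 4.22 between the ends. The counting interval of replicate 1 (0.457 to 0.870 TPM) lay above that of replicate 4 (0.0413 to 0.388 TPM), while that of replicate 2 (0.109 to 0.498 TPM) overlapped both. The mean was 0.397 ± 0.232 TPM (SD, n = 4), and no library reached 1 TPM.

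Ms4a6d, best known from macrophages, had 15, 14, 6 and 7 counts and a level of 0.242, 0.447, 0.157 and 0.267 TPM. Replicate 2 was the highest and replicate 3 the lowest, but the counting intervals of all 4 libraries overlapped one another. Overlap of intervals is not a test, and single libraries were not tested against each other. The mean was 0.278 ± 0.122 TPM (SD, n = 4). All 5 genes were above the floor of 3 counts in every library.

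**Figure D2:**
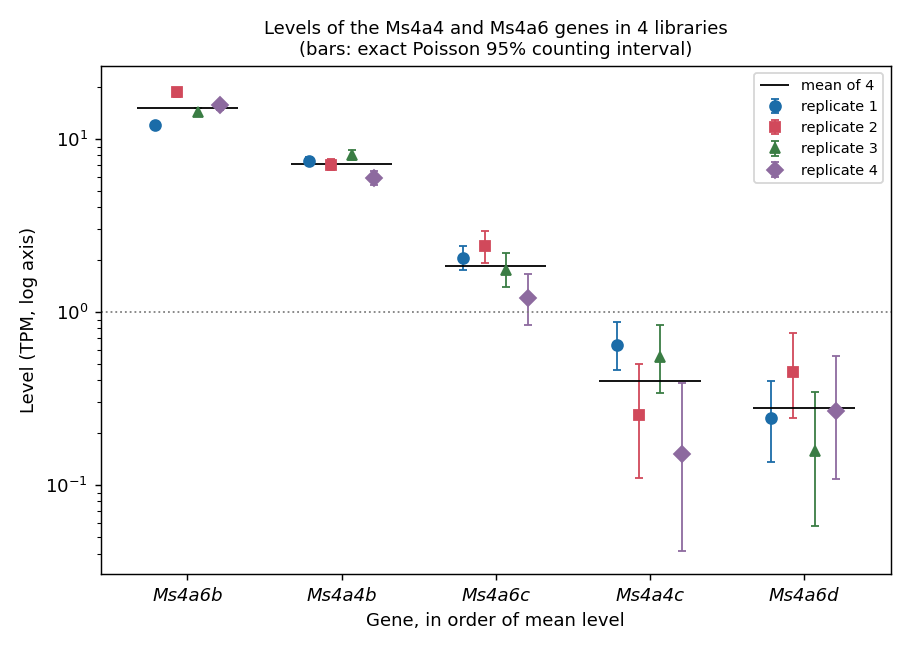
Level of each gene in TPM on a log axis, with 1 marker per library, exact Poisson 95% counting intervals as bars, a black line at the mean of 4 and a dotted line at 1 TPM. Ms4a6b (12.0 to 18.5 TPM), Ms4a4b (5.91 to 8.06 TPM) and Ms4a6c (1.20 to 2.38 TPM) form separate ranges, while Ms4a4c and Ms4a6d lie below 1 TPM and overlap.

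The order of mean levels was thus Ms4a6b, Ms4a4b, Ms4a6c, Ms4a4c and Ms4a6d. Neighbours in it were compared library by library, by subtracting their log2(TPM + 0.1) values. Ms4a6b exceeded Ms4a4b by 0.69, 1.37, 0.81 and 1.39 in replicates 1 to 4, a mean of 1.07 ± 0.37 (SD, n = 4), and was higher in 4 of 4 libraries. Ms4a4b exceeded Ms4a6c by 1.92 ± 0.31, and Ms4a6c exceeded Ms4a4c by 2.06 ± 0.64, each in 4 of 4 libraries. Ms4a4c and Ms4a6d differed by 1.11, -0.63, 1.33 and -0.55, a mean of 0.31 ± 1.05, and Ms4a4c was higher in 2 of 4 libraries (exact two-sided sign-flip p = 0.625). The difference of these last 2 was smaller than its spread.

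Of the 10 pairs among the 5 genes, 9 had ranges of TPM that did not overlap and the same direction in every library. The exact sign-flip test cannot reach 0.05 with 4 libraries: each of these 9 pairs had the smallest p it can give, 2 of 16 sign assignments, which Benjamini-Hochberg adjustment over the 10 pairs turned into p = 0.139. Within the Ms4a4 genes, Ms4a4b was 11.6, 28.0, 14.8 and 39.0 times as high as Ms4a4c in TPM in replicates 1 to 4. Their difference in log2(TPM + 0.1) was 3.98 ± 0.58, which the added 0.1 makes smaller than the log2 of these ratios. Within the Ms4a6 genes, Ms4a6b was 5.86, 7.78, 8.15 and 13.1 times as high as Ms4a6c, with a difference in log2(TPM + 0.1) of 2.99 ± 0.46. In both of these pairs the ratio was lowest in replicate 1 and highest in replicate 4. The pairs with Ms4a6d had other libraries lowest and highest. Their log2 differences in replicates 1 to 4 were 5.14, 5.09, 5.80 and 5.42 for Ms4a6b, and 2.65, 2.18, 2.85 and 1.82 for Ms4a6c.

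These levels divide counts by the merged length of all annotated exons, which includes exons of transcripts with retained introns. That length was 4485 bases for Ms4a6b against 2680 for its transcript with the longest coding sequence, a ratio of 1.67, and 1.02 to 1.22 for the other 4 genes. With the transcript's length, Ms4a6b was at 25.3 TPM and exceeded Ms4a4b by 1.66 on the log2 scale.

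The members differed in which libraries were highest. Relative to its own mean of log2(TPM + 0.1), Ms4a4b deviated by 0.07, 0.00, 0.19 and -0.25 in replicates 1 to 4 and Ms4a4c by 0.71, -0.36, 0.51 and -0.85, so that both had replicates 1 and 3 as their 2 highest libraries. Ms4a6b deviated by -0.31, 0.31, -0.06 and 0.07 and had replicates 2 and 4 highest, as Ms4a6d did. Ms4a6c deviated by 0.18, 0.39, -0.03 and -0.54, with replicates 1 and 2 highest. These orders are a description of 4 libraries, and whether the members move together was not tested. The counting intervals of Ms4a6d overlapped in all 4. For Ms4a4b, those of replicate 1 (7.03 to 7.81 TPM) and replicate 2 (6.55 to 7.63 TPM) overlapped.

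**Figure D3:**
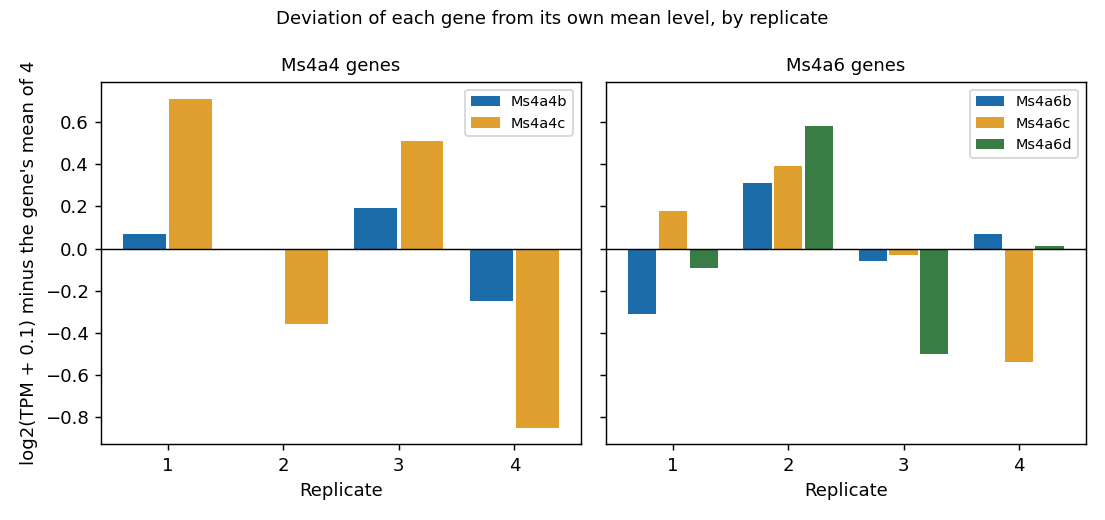
Deviation of log2(TPM + 0.1) from each gene's mean of 4, by replicate, for the Ms4a4 genes (left) and the Ms4a6 genes (right). Ms4a4c spans the widest range, from -0.85 in replicate 4 to 0.71 in replicate 1, and Ms4a4b the narrowest, from -0.25 to 0.19.

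Whether a gene's spread exceeded that of genes of like abundance was tested across all genes with the quasi-likelihood dispersion of edgeR. The test called 1 of 13625 genes, 0.00734% of those tested (Xist), and none of the 3 members that had enough counts to be tested. Ms4a6b had a dispersion of 3.26 times its prior (edgeR unadjusted p = 0.0947, adjusted p = 0.965), Ms4a4b of 1.63 times (adjusted p = 0.97) and Ms4a6c of 1.13 times (adjusted p = 0.988). At an unadjusted p under 0.05, 0 of these 3 passed, against 4.7% of all genes tested, and limma and DESeq2 called none of them either. The number of genes called depended on the method: it was 43 as DESeq2 dispersion outliers, 98 in edgeR without the filter on low counts and 18 in edgeR without replicate 2. Ms4a4c and Ms4a6d fell below the count filter, which asks for enough counts in every library. Without the filter their adjusted p was 0.972 and 0.982.

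The coefficient of variation between libraries was 12.7% for Ms4a4b, 18.0% for Ms4a6b and 27.2% for Ms4a6c, against a median of 8.53% over the 11984 genes at 1 TPM in every library. It was 58.4% for Ms4a4c and 43.8% for Ms4a6d, whose counts were few. Genes with the most similar profile over the 4 libraries were found by the distance between centred log2(TPM + 0.1) values, among 10631 protein-coding genes. For Ms4a6b these were Tmc4 (distance 0.006) and Lrrc8a (0.038), and for Ms4a4b Gpr19 (0.020) and Slc35d2 (0.023). For Ms4a6c they were Gm20498 (0.118) and Fam71f2 (0.176). As many as 17 genes lay within 0.1 of Ms4a6b and 20 within 0.1 of Ms4a4b, so 4 libraries do not single out a partner.

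The other genes named Ms4a had few or no counts. Of 14 other Ms4a genes, 8 had 0 counts in every library, 4 had a few counts that never passed 3 in a library, and 2 passed it in 1 library. Ms4a1 (CD20) had 0, 0, 0 and 2 counts in replicates 1 to 4, Ms4a2 had 0, 0, 0 and 1, and Ms4a3, a gene of granulocyte precursors, had none. Ms4a7 had 7 counts in replicate 1 and 0 elsewhere. Ms4a4a, which many macrophages express, had 0, 3, 2 and 4 counts, and Ms4a4d 2, 3, 3 and 1. The 5 genes held 98.28% to 99.64% of the level summed over the 19 genes of that name, and only Ms4a4b, Ms4a6b and Ms4a6c of the 19 reached 1 TPM in every library.

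The members at 1 TPM or more lay close together. Between Ms4a10 and Ms4a3, which bound the cluster over 679 kb, 36 genes are annotated, and 7 of them had at least 10 counts in every library. Ms4a4b, Ms4a6c, BE692007, Gm8369 and Ms4a6b are 5 of these and lie between 11443553 and 11531256, while the noncoding RNA gene AW112010 (127 ± 13.9 TPM; SD, n = 4) and the pseudogene Gm6501 lie apart from them. Gm8369, a protein-coding gene between Ms4a6c and Ms4a6b, was at 4.23, 5.49, 4.28 and 5.23 TPM, with replicates 2 and 4 above 1 and 3. These levels rest on a merged exon length of 5986 bases. The transcript with its longest coding sequence has 1374, a ratio of 4.36, and levels with that length were not computed. Gm8369 bears no Ms4a name and is not in the counts of the family above. Its coding sequence was identical to that of Ms4a4b at 89.2% and to that of Ms4a4c at 89.8% of 372 aligned bases. With gaps counted as differences these were 41.0% and 41.2%. Of its stretches of 50 bases, 0.360% occurred in another gene. Ms4a4d, between Ms4a6b and Ms4a6d, had no more than 3 counts in a library.

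**Figure D4:**
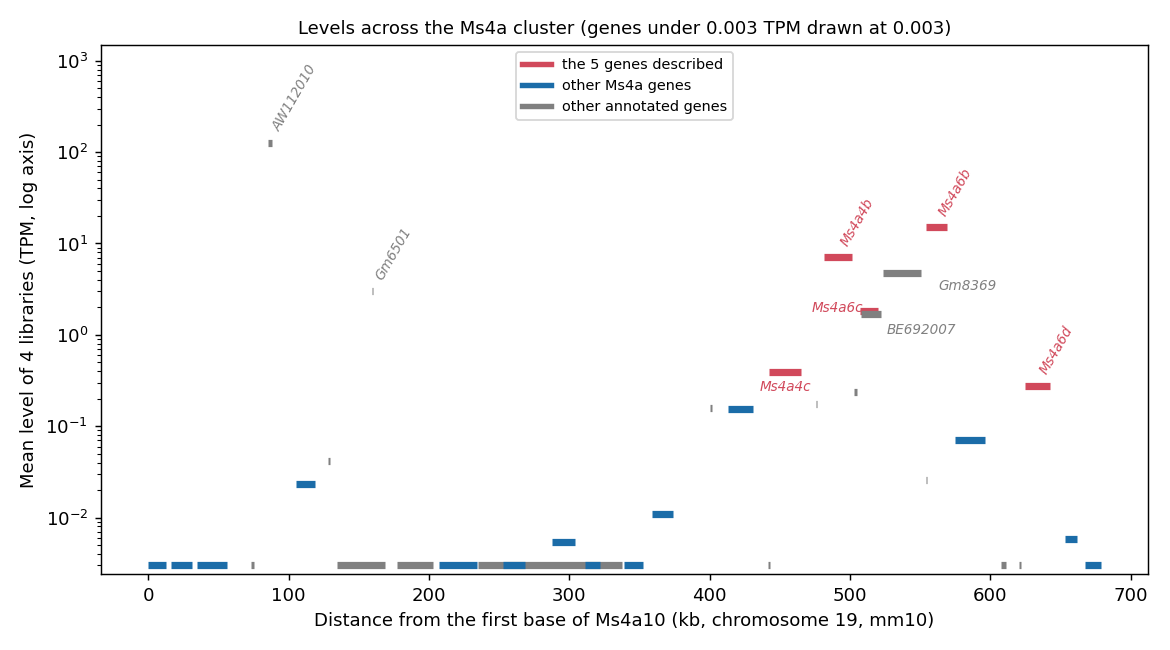
Mean level of the annotated genes of the Ms4a cluster on chromosome 19, in TPM on a log axis, against distance in kb from the first base of Ms4a10. Bars span each gene. The 5 genes described (red) reach 0.278 to 15.1 TPM, while the other Ms4a genes (blue) stay at 0.156 TPM or less.

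Tmem176a and Tmem176b, more distant tetraspan relatives that lie side by side on chromosome 6, were at levels near those of Ms4a6b. Tmem176b was at 21.9, 20.6, 13.7 and 22.4 TPM and Tmem176a at 11.3, 13.6, 8.08 and 11.7 TPM, and replicate 3 was the lowest for both. The edgeR dispersion test called neither (adjusted p = 0.965 for each).

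Promoter windows from RefSeq (GRCm38.p6, the mm10 build), 250 bases before to 50 after the start site, were available for 4 of the 5 genes, all but Ms4a6d. Stretches of 120 bases before the start are shown for the 2 pairs of relatives, because Ms4a4b and Ms4a6b stood 11.6 to 39.0 and 5.86 to 13.1 times as high as their relatives Ms4a4c and Ms4a6c. None overlaps an annotated exon of its gene, and capitals mark the longest run that both genes of a pair share within the stretches shown. These runs begin at -214 in Ms4a6b and -141 in Ms4a6c, counted from the start site, and at -41 in Ms4a4b and -38 in Ms4a4c. The whole windows of Ms4a6b and Ms4a6c share a longer run of 48 bases, at -118 and -49, which is not printed. The windows of Ms4a4c and Ms4a6b lie inside the genes as annotated in GENCODE, since their RefSeq start sites are 2891 and 2047 bases after the first annotated base.
Ms4a6b, chr19:11518309-11518428, plus strand: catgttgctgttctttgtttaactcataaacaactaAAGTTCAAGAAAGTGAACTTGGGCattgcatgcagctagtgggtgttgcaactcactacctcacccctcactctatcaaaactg
Ms4a6c, chr19:11469179-11469298, plus strand: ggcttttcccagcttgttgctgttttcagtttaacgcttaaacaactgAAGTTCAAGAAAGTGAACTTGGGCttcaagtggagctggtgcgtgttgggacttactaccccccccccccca
Ms4a4b, chr19:11443433-11443552, plus strand: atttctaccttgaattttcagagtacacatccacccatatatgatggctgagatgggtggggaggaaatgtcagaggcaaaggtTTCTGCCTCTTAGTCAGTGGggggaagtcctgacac
Ms4a4c, chr19:11407541-11407660, plus strand: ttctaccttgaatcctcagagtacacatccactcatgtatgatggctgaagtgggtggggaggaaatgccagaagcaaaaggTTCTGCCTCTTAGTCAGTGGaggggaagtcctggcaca

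The window of Ms4a6b aligned with that of Ms4a6c over 232 columns, gaps counted, at 81.0% identity, and that of Ms4a4b with that of Ms4a4c over 183 columns at 88.5%. An Ms4a4 and an Ms4a6 window aligned over no more than 26 columns. In all, 6 motifs were searched on both strands. The interferon regulatory factor type, GAAANNGAA, occurred in Ms4a6b (11518353 to 11518361) and Ms4a6c (11469235 to 11469243), in both as GAAAGTGAA and within the shared 24 bases printed in capitals. It occurred in 8.56% of 32851 windows of the same length and in neither the Ms4a4b nor the Ms4a4c window. Of the 18 Ms4a genes with a window, 4 held it: the others were Ms4a18, with 0 counts, and Ms4a7, with 7 in all. The Runx type, TGTGGT, occurred in Ms4a4c alone of the 4 and in 16.8% of all windows. The STAT type TTCNNNGAA (8.30% of windows), the forkhead type GTAAACA (3.65%), the ETS type CGGAAG (16.9%) and the Kruppel-like type GGGTGTG (7.95%) occurred in none of the 4. TTCNNNGAA reads the same on both strands, and no other motif overlapped the GAAANNGAA matches in these windows. A match is a description of the letters only.

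Lists of other genes set these levels in their cells. Naive and quiescent T cell genes had a median of 61.2 TPM over 12 genes, from Ccr7 (468 TPM) and Tcf7 (449 TPM) down to Il7r (7.93 TPM), and all 12 reached 1 TPM in every library. The 10 proliferation genes had a median of 327 TPM, from Rrm2 (526 TPM) and Pcna (501 TPM) to Ccnb1 (96.9 TPM). Both medians were above the mean levels of Ms4a4b and Ms4a6b. Of the 6 receptors and partners on T cells, Tnfrsf4 (OX40) and Tnfrsf18 were the highest at 1198 and 824 TPM and Cd28 the lowest at 67.2 TPM. The 14 interferon response genes had a median of 0.578 TPM and 5 reached 1 TPM in every library, with Bst2 highest at 227 TPM and Rsad2 lowest at 0.00907 TPM. Across these lists edgeR tested 12, 10, 6 and 7 genes and called none. Of them 2, 1, 1 and 1 had an edgeR unadjusted p under 0.05, against 4.7% of all genes tested. Among the 6 regulatory T cell markers 3 had such a p, and 0 were called.

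Markers of cells in which Ms4a genes are often described were low beside the general T cell markers, which summed to 3516 to 3760.2 TPM. Several still exceeded the mean levels of Ms4a6c (1.84 TPM), Ms4a4c (0.397 TPM) and Ms4a6d (0.278 TPM). The 10 monocyte and macrophage markers summed to 7.10, 7.63, 8.69 and 8.11 TPM in replicates 1 to 4, and 2 of them, Cd68 (4.51 ± 1.39 TPM; SD, n = 4) and Adgre1 (2.55 ± 0.860 TPM), reached 1 TPM in every library. Lyz2, Fcgr1 and C1qa had 0 counts in all 4 libraries, and Csf1r was at 0.0382 ± 0.0244 TPM. Cd68 was at 4.65, 3.48, 6.43 and 3.48 TPM in replicates 1 to 4, with replicates 1 and 3 highest. Adgre1 was at 1.85, 3.34, 1.76 and 3.25 TPM, with replicates 2 and 4 highest, so these 2 markers did not share an order. The part of such cells in the levels of the 5 genes was not tested. The 7 dendritic cell markers summed to 4.20 to 5.22 TPM, mostly from Zbtb46 (4.51 TPM), with Clec9a, Siglech and Cd209a at 0 counts. The 7 B cell markers summed to 2.95 to 4.50 TPM, mostly from Cd79b (3.14 TPM), with Cd22 at 0. The 8 mast cell and granulocyte markers summed to 4.68 to 6.16 TPM, mostly from Kit (5.22 TPM), and 5 of them were at 0. The 6 natural killer cell markers summed to 3.63 to 4.04 TPM, mostly from Eomes (3.34 TPM), with Ncr1 and Klra8 at 0 counts. The 3 CD8 T cell markers summed to 8.70 to 13.4 TPM, mostly from Cd8b1 (11.5 TPM). The 4 stromal markers summed to 11.5 to 13.7 TPM, mostly from Pecam1 (9.02 TPM) and Epcam (3.12 TPM). In such bulk samples a small number of cells with much of an RNA and many cells with little of it cannot be told apart.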

How the data were processed

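RNA was measured in 4 libraries of regulatory T cells. The deposited values are unnormalized counts of fragments on the exons of each gene. Per the file headers, the authors ran featureCounts 1.4.6-p4 with the GENCODE M13 annotation (coordinates of mm10), on pairs mapped at both ends and in strand setting 2 (reverse), without the options that add fragments with several alignments or overlapping several genes. The aligner's version is not given in the sources used here. Symbols matched 50376 of 50600 identifiers, and gene types, transcripts and coding sequences came from GENCODE M21.

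TPM was computed here from counts and the deposited merged exon lengths, over all genes. Pairs of genes were compared on log2(TPM + 0.1), flipping the signs of the library differences in all ways (exact, two-sided). The spread of each gene between libraries came from edgeR 4.0.16 under R 4.3.3 (TMM, filterByExpr for 1 group, intercept-only quasi-likelihood fit with a robust prior), taking the dispersion over its trended prior, with 6.54 prior degrees of freedom, Benjamini-Hochberg adjustment over all genes tested and 0.05 as the threshold. Coding sequences were aligned globally and promoter windows locally.

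The members and the gene lists were chosen with earlier results of these data known. Named genes are the members, all other Ms4a genes with Tmem176a and Tmem176b, genes of the cluster, the 2 nearest profiles of members with at least 10 counts in every library, and the 2 highest genes and the lowest of each list. The last rule did not cover the lists of cell type markers. Chosen after seeing values were Xist, Eif2s3y, Ikzf2, Irf7, Isg15, Ifit1, Usp18, Oas1a, Ifit3 and Irf1. So were the marker genes at 0 counts, among the highest of their list or named for their defining role. The second highest gene of the interferon list is not reported here.

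Level differences were recomputed with a pseudocount of 1 and as CPM, levels with TMM and DESeq2 scaling, and both over a total of protein-coding nuclear genes. The dispersion test was repeated with DESeq2 1.42.0 size factors, upper quartile scaling, other filters, a non-robust prior, 0.01 as the threshold, limma 3.58.1 and the DESeq2 outlier call, and every result without each replicate. The length of the coding transcript was added after seeing the data. Python 3.11.15 was used.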

Additional observations from a re-analysis of the deposited data

How the results depend on the processing

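All 9 pairs of members other than Ms4a4c and Ms4a6d kept their direction under each of 72 recomputed values: a pseudocount of 1, CPM without length, a total of protein-coding nuclear genes, the length of the coding transcript and leaving out each replicate. Their sizes moved. With a pseudocount of 1, Ms4a6c exceeded Ms4a4c by 1.02 in place of 2.06 on the log2 scale, Ms4a6c exceeded Ms4a6d by 1.14 in place of 2.37, and Ms4a4b exceeded Ms4a4c by 2.55 in place of 3.98 and Ms4a6d by 2.66 in place of 4.30. With the coding transcript's length, Ms4a6b exceeded Ms4a4b by 1.66 in place of 1.07 and Ms4a6c by 3.58 in place of 2.99. Without length, in CPM, Ms4a6b exceeded Ms4a6c by 4.07 and Ms4a4b exceeded Ms4a6c by 3.23 on the log2 scale. The log2 difference of Ms4a4c and Ms4a6d, 0.31 over all libraries, was 0.12 with a pseudocount of 1 and with the coding transcript's length. It ran from -0.02 (without replicate 3) to 0.63 (without replicate 2) when 1 replicate was left out, so that its sign depends on replicate 3. Of 40 recomputed levels, 39 stayed within 1 SD of the reported mean, and Ms4a6b rose to 25.3 TPM with the length of its coding transcript. The number of genes varying between libraries, 1 with edgeR, was 98 without the filter on low counts, 43 as DESeq2 dispersion outliers and 1 to 18 when a replicate was left out, with 2 without replicate 1 and 18 without replicate 2. The cause of these differences in number was not tested. Under the 12 alternatives of that test 0 members were called, and their adjusted p in edgeR and limma lay between 0.860 and 0.999. Depth limits Ms4a4c and Ms4a6d, whose lowest libraries had 4 and 6 counts.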

Other observations

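Several interferon response genes had the same 2 highest libraries as Ms4a4c and Ms4a4b. Irf7, a transcription factor of the interferon response, was at 2.19, 0.615, 1.93 and 0.966 TPM in replicates 1 to 4, and Isg15, a ubiquitin-like modifier, at 4.70, 1.46, 4.74 and 2.54 TPM. Ifit1, which binds foreign RNA, was at 0.579, 0.167, 0.820 and 0.324 TPM, and Usp18, which removes Isg15 from proteins, at 0.802, 0.397, 0.797 and 0.523 TPM. With Oas1a, these made 5 of the 11 interferon genes that had at least 10 counts in total, and all 5 had replicates 1 and 3 highest. The other 6 did not: Ifit3 was at 0.978, 0.539, 0.364 and 0.228 TPM, and Irf1, another transcription factor of this response, at 12.7, 13.4, 11.7 and 12.1 TPM. Replicates 1 and 3 were also the 2 highest libraries for 20.4% of all 18120 genes with that total. The Ms4a6 genes had other libraries highest. This order was noticed in the data and was not tested.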
